A study of Mus musculus with 12 samples.

Results

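The genes described here encode the machinery of cell division, taken as 47 named genes, of which 19 act in DNA replication, 26 in mitosis and 2 (Ccna2 and Mki67) in both phases. Every array probe whose annotated symbol was among them was used, which gave 73 of the 25697 probes and 42 of the 16593 named genes. The other 5 genes (Aurkb, Mki67, Ccnb1, Gins2 and Racgap1) had no probe of that name and are not analysed here. A further 8 genes had probes, but none was detected on any array: Bub1, Ccnb2, Kif20a, Ttk, Hmmr, Ect2 and Ube2c of the mitosis group, and Ccna2. Their 9 probes lay between 4.31 and 5.10 on the log2 intensity scale, not above background, so their level cannot be followed over the cycle. That left 34 genes with a probe detected on at least 3 of the 12 arrays, 18 of replication and 16 of mitosis, and 26 of them (13 in each group) were detected on all 12.

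A dividing cell copies its genome once in S phase and parts the copies in mitosis, and each step has its own genes. Replication genes load and drive the helicase at origins, supply nucleotides and build DNA at the fork, and many are switched on before S phase by E2F factors. Mitosis genes build the spindle, attach and check the chromosomes and split the cell, and many are switched on later, through a promoter element called the cell cycle homology region (CHR) that the DREAM and MuvB complexes bind, often with CCAAT boxes bound by NF-Y nearby. In the oviduct, the tube that carries eggs and early embryos, the lining is made of secretory and multiciliated cells, and ovarian hormones change it over the estrous cycle.

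Oviduct RNA of ICR mice, an outbred stock, aged 6 weeks was measured on Illumina bead arrays, 3 for each of the 4 stages (proestrus, estrus, metestrus and diestrus). The labels give no treatment or genotype and do not say whether the arrays of a stage are separate animals, pools or repeated hybridisations, so a p-value reflects the spread between arrays, which may be technical. The 4 replicate 1 arrays were brighter than the other 8, with a median raw intensity of 139 to 156 against 99.3 to 105, and had 55.6% to 58.1% of probes detected against 48.6% to 51.8%. The oviduct marker genes Ovgp1 (secretory cells), Pax8 and Foxj1 (ciliated cells) were detected on every array, with stage means of 15.06 to 15.18 for Ovgp1 and 7.62 to 7.72 for Foxj1. Epcam, another epithelial marker, had no probe used here. Values below are normalized log2 intensities, a gene with several probes is given by its brightest, and levels are not compared between genes, because probes differ in brightness.

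The promoters of 5 genes are shown because these genes passed a test between stages. Each is the RefSeq (GRCm38.p6) window from 250 bases before to 50 after the annotated start, printed on the gene's own strand. Capitals mark the motifs searched, on both strands: TTTGAA or TTCGAA for the CHR, CCAAT for the NF-Y box, and TTCCCGC or TTGGCGC or TTCGCGC or TTGCCGC for E2F, so that ATTGG is a CCAAT box read from the other strand. The Prc1 window lies at chr7:80294201-80294500, the Birc5 window at chr11:117848987-117849286, the Bub1b window at chr2:118597961-118598260, the Cdca3 window at chr6:124829926-124830225 and the Mcm5 window at chr8:75109259-75109558, all on the plus strand.
Prc1: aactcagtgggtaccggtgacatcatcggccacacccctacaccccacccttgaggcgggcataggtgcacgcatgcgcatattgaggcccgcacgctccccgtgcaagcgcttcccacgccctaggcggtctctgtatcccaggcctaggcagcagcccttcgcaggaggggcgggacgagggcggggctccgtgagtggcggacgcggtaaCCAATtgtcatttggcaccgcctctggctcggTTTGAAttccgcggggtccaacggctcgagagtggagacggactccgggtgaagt
Birc5: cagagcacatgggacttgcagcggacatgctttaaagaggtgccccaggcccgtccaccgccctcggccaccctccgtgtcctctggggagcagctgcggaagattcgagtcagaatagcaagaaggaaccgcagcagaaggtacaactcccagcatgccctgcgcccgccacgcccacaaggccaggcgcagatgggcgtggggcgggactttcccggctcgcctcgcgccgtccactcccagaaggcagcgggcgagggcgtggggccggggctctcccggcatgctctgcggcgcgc
Bub1b: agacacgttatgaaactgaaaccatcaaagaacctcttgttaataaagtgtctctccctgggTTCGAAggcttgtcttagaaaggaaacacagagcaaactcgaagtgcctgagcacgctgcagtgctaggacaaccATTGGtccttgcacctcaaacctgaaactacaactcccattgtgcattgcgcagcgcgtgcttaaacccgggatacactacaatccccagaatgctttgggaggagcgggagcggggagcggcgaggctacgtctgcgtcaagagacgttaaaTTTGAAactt
Cdca3: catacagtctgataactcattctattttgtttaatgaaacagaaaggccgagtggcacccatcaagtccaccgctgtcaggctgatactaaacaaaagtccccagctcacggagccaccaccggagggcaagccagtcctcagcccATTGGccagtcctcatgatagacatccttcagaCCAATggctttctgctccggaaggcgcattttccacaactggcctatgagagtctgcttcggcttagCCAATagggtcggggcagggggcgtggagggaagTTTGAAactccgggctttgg
Mcm5: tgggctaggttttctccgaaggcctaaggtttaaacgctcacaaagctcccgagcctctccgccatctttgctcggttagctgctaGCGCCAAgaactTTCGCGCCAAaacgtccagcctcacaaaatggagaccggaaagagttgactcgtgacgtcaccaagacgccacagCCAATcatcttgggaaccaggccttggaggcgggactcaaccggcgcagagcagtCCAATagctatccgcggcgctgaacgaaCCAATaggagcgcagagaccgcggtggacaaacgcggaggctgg

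Prc1 and Cdca3 each had 1 CHR match, beginning at -5 and 31 from the start, with CCAAT boxes upstream of it at -37 in Prc1 and at -104, -71 and -4 in Cdca3. Bub1b had CHR matches at -188 and 41 and a CCAAT box at -113. The Mcm5 window held no CHR match, 3 CCAAT boxes, and 3 E2F matches at -164, -152 and -149, of which the last 2 overlap by 4 letters. None of the motifs was in the Birc5 window, which says only that these letters are not in it. Over the group, 20 of the 23 mitosis genes with a window (87%) held a CHR match, against 4 of 17 replication genes (23.5%) and 19.4% of 27025 genes with a window. An E2F match was in 10 of 17 replication windows (58.8%), 4 of 23 mitosis windows (17.4%) and 9.69% of all. Among the tested genes with a window the E2F share was 16%, against 1 of 15 mitosis genes (6.67%), and the CHR share was 13.8%, against 13 of 15 mitosis genes (86.7%), while the 17 replication genes were all tested. CCAAT boxes were in 87% of mitosis windows, 58.8% of replication windows and 37.9% of all, and 82.6% of mitosis windows held CCAAT and CHR together, against 17.6% of replication windows and 7.7% of all. These matches describe the sequences and are no evidence of binding. No window was listed for Mcm4, Gins2, Aurkb, Tpx2, Kif20a and Ccna2.

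**Figure D1:**
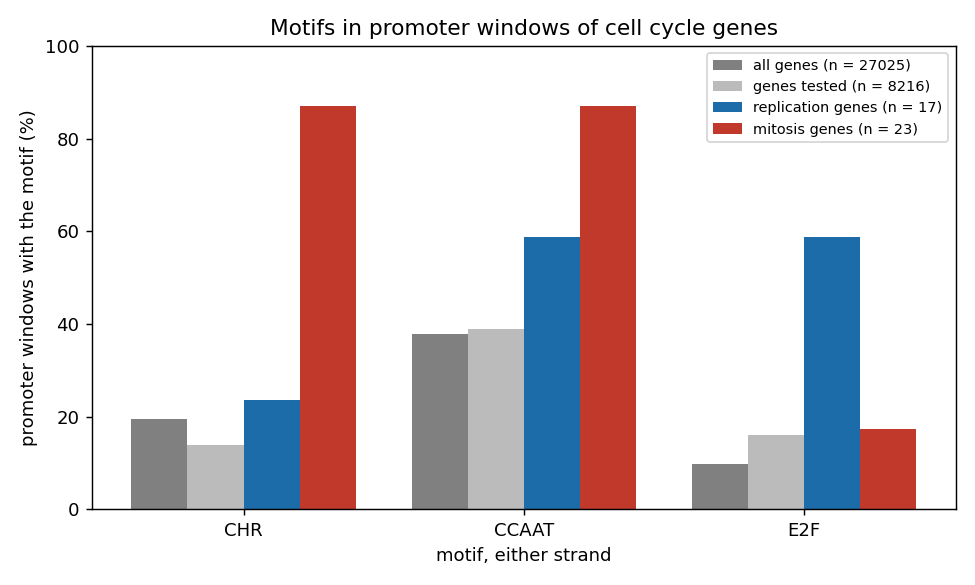
Share of promoter windows (percent, 250 bases before to 50 after the start) that hold a CHR, CCAAT or E2F motif on either strand, for 27025 genes, the 8216 tested genes with a window, 17 replication genes and 23 mitosis genes. CHR matches are commonest in the mitosis windows (87%) and E2F matches in the replication windows (58.8%).

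Across the 4 stages, 4 of the 34 genes changed (limma moderated F, adjusted p under 0.05), against 5.37% of all 10144 genes tested. They were the mitosis genes Prc1, Birc5 and Bub1b and the replication gene Mcm5, and the mitosis gene Cdca3 passed only between estrus and diestrus. By the brightest probe of each, all 5 had their highest mean at estrus and their lowest at diestrus. With the replicate number as a block the count was 16 (4 replication and 12 mitosis genes), against 16.4% of all genes. From the authors' deposited normalized values without a block it was 0 (0.651% of all genes), with 5 at an unadjusted p under 0.05. With the block those values gave 3 replication and 12 mitosis genes (14.2% of all genes). In whole-tissue RNA, fewer cells of a type and less RNA per cell cannot be told apart.

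**Figure D2:**
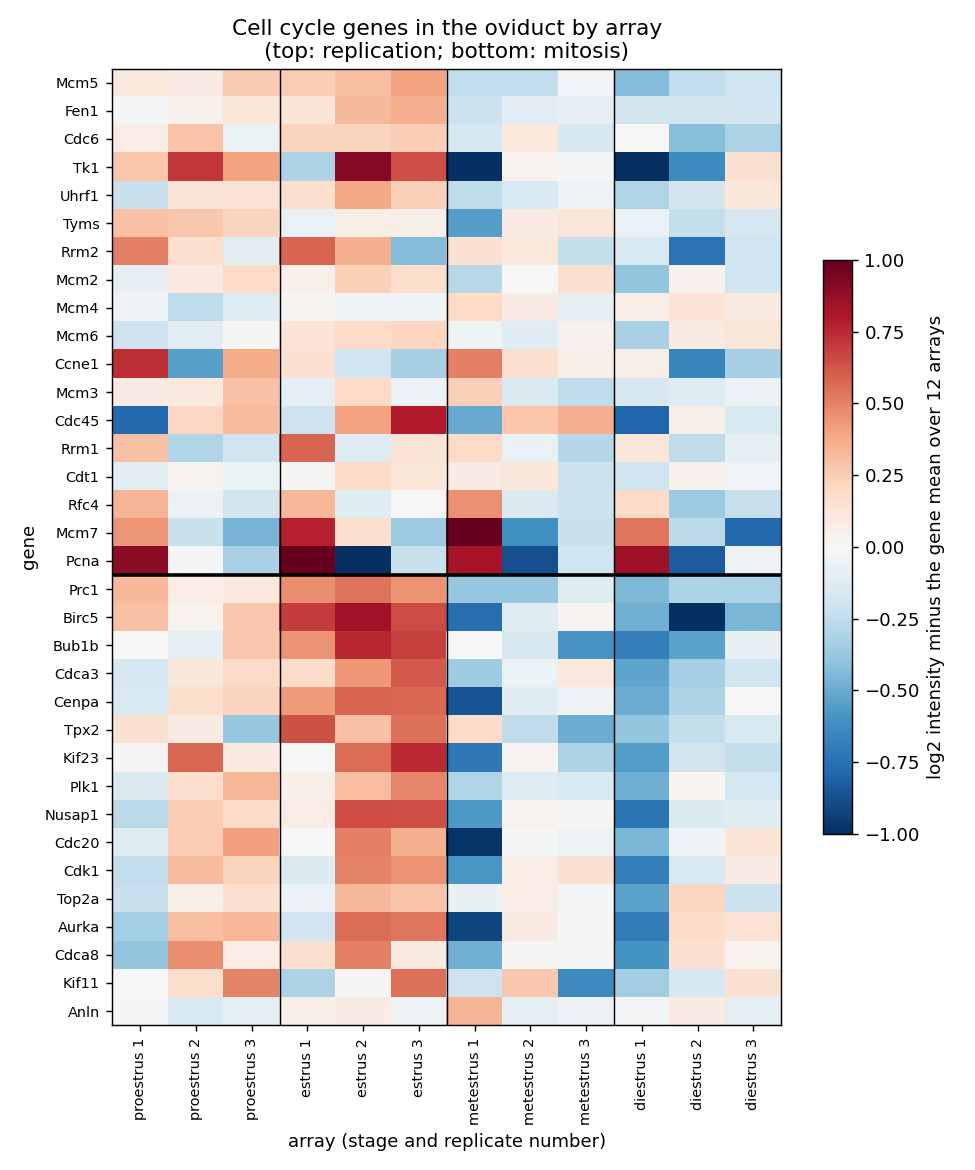
Log2 intensity of the 34 tested genes on each of the 12 arrays, minus the gene's mean over all arrays (colour, limited to 1 in either direction), with 18 replication genes above the line and 16 mitosis genes below, each ordered by F p-value. The estrus columns are mostly red in the mitosis rows, and replicate 1 columns are paler or bluer there than replicates 2 and 3.

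Prc1 bundles microtubules of the central spindle and is needed for the cell to split. Its log2 intensity was 9.64, 9.39 and 9.42 on the proestrus arrays, 9.78, 9.86 and 9.77 at estrus, 8.94, 8.94 and 9.19 at metestrus, and 8.87, 9.01 and 8.999 at diestrus. All estrus arrays lay above all proestrus arrays, which lay above every metestrus and diestrus array, while the last 2 stages overlapped. The mean fell by 0.78 ± 0.12 (log2, SE) from estrus to metestrus, a 1.72-fold change (limma, adjusted p = 0.00418). It was 1.79-fold higher at estrus than at diestrus (0.84 ± 0.12, adjusted p = 0.00323) and 1.44-fold higher at proestrus than at diestrus (0.52 ± 0.12, adjusted p = 0.0306). The step from proestrus to estrus, 0.32 ± 0.12, did not pass (adjusted p = 0.509). The F test (adjusted p = 0.00302) passed whichever array was left out, as did both estrus comparisons. The proestrus against diestrus call was lost without estrus 2 or 3, or without any proestrus or diestrus array (adjusted p = 0.0518 to 0.111).

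Birc5 encodes survivin, the subunit that brings the chromosomal passenger complex to centromeres and is also known as an inhibitor of apoptosis. It read 7.17, 6.91 and 7.15 at proestrus, 7.58, 7.72 and 7.53 at estrus, 6.12, 6.76 and 6.90 at metestrus, and 6.40, 5.87 and 6.42 at diestrus. The estrus arrays were again above all others, and the metestrus and diestrus arrays overlapped. It had the largest difference of the 34 genes between estrus and diestrus, 2.61-fold (1.38 ± 0.21, adjusted p = 0.00439). From estrus to metestrus it fell by 1.02 ± 0.21, or 2.02-fold (adjusted p = 0.0238), and at proestrus it was 1.80-fold higher than at diestrus (0.85 ± 0.21, adjusted p = 0.0406). The fall after estrus was lost without estrus 1, 2 or 3 (adjusted p = 0.0679, 0.117 and 0.0734), and the proestrus call without any array other than metestrus 1 and 3 (adjusted p = 0.0527 to 0.151). The F test (adjusted p = 0.00769) and the estrus against diestrus call passed with each array left out. The 2 dimmer Birc5 probes differed in the same direction, by -0.79 and -0.90 from estrus to metestrus and by 0.96 and 1.05 between estrus and diestrus. Between estrus and proestrus they differed by 0.20 and 0.18, against 0.53 for the brightest probe. On both, proestrus 3 lay above estrus 1, so those 2 stages overlapped.

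Bub1b encodes BubR1, a spindle checkpoint protein that holds back anaphase until chromosomes are attached. Its values were 5.80, 5.71 and 6.07 at proestrus, 6.25, 6.56 and 6.49 at estrus, 5.80, 5.64 and 5.21 at metestrus, and 5.12, 5.27 and 5.72 at diestrus. Every estrus array exceeded every other array, and the other 3 stages overlapped. It was near background, detected on 7 of 12 arrays, so its differences may be compressed. Estrus exceeded diestrus by 1.07 ± 0.20, or 2.10-fold (limma, adjusted p = 0.0139), and metestrus by 1.85-fold (a fall of 0.89 ± 0.20, adjusted p = 0.0344). The F test (adjusted p = 0.0225) was lost without diestrus 2, estrus 2 or estrus 3 (adjusted p = 0.0664, 0.107 and 0.0939). The diestrus comparison was lost without diestrus 1, diestrus 2, estrus 2 or estrus 3 (adjusted p = 0.0639 to 0.0801). The metestrus comparison was lost without any estrus array, metestrus 2, metestrus 3, diestrus 2 or proestrus 2 (adjusted p = 0.0526 to 0.162).

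Cdca3 promotes entry into mitosis. It read 7.35, 7.63 and 7.71 at proestrus, 7.70, 7.95 and 8.13 at estrus, 7.16, 7.45 and 7.62 at metestrus, and 6.99, 7.18 and 7.32 at diestrus. In all 4 stages replicate 1 was the lowest array, and estrus lay above metestrus and diestrus without overlap. The estrus level was 1.70-fold that of diestrus (0.77 ± 0.17, limma, adjusted p = 0.0380), a call lost without estrus 2 or 3, any diestrus array, metestrus 2, or proestrus 2 or 3 (adjusted p = 0.0552 to 0.178). Its F test did not pass (adjusted p = 0.0766), but did with the replicate block (adjusted p = 0.000678). A dimmer Cdca3 probe differed by 0.57 between estrus and diestrus.

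**Figure D3:**
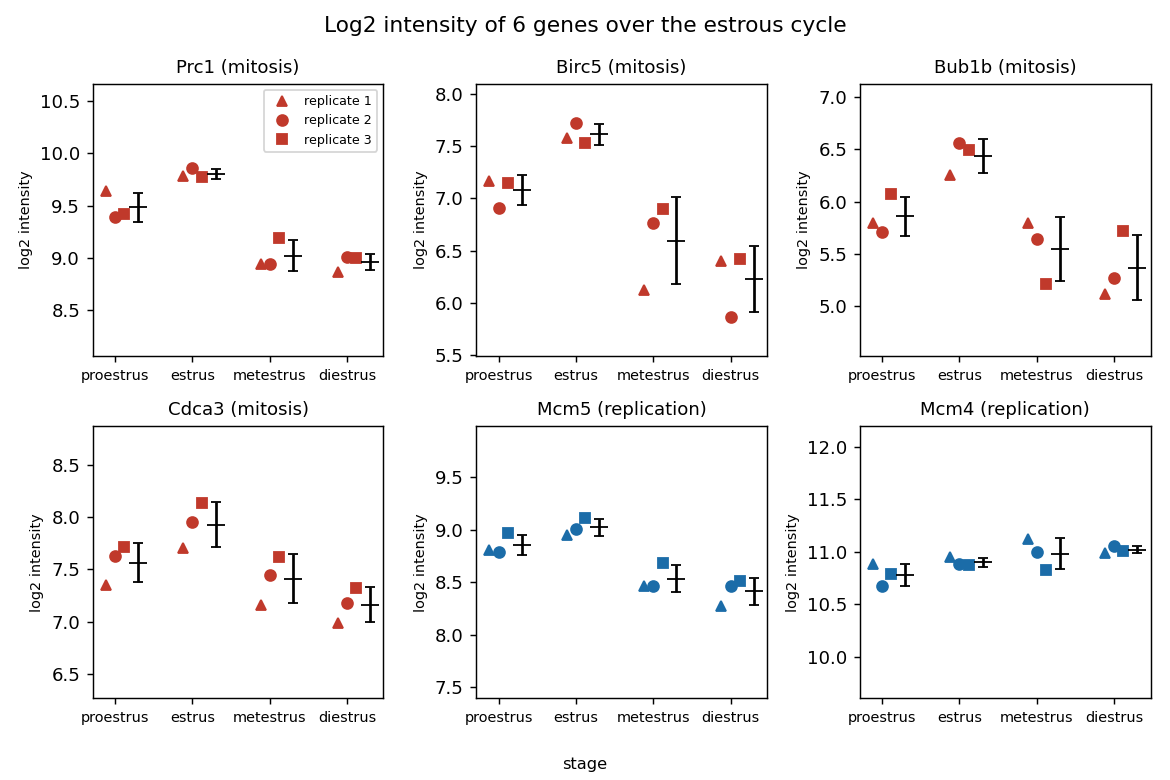
Log2 intensity by stage for Prc1, Birc5, Bub1b, Cdca3, Mcm5 and Mcm4, with a symbol per array (triangle, circle and square for replicates 1, 2 and 3) and the mean ± SD (n = 3 arrays) beside them. The first 5 genes are highest at estrus, and Mcm4 is lowest at proestrus and highest at diestrus.

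The other 12 tested mitosis genes passed no test without the block, and with it 8 passed the F test. Their highest mean was at estrus for 10 of them, and the lowest was at diestrus for 5 and at metestrus for 6. Cenpa, the histone that marks centromeres, read 9.30, 9.63 and 9.68 at proestrus, 9.88, 10.04 and 10.03 at estrus, 8.59, 9.33 and 9.41 at metestrus, and 8.96, 9.15 and 9.46 at diestrus. All its estrus arrays were above all others, but the fall of 0.87 ± 0.22 to metestrus did not pass (limma, adjusted p = 0.0623), nor did the difference of 0.79 ± 0.22 from diestrus (adjusted p = 0.107). With the replicate block both passed (adjusted p = 0.0022 and 0.00427). Top2a, which untangles copied chromosomes, read 7.37, 7.66 and 7.77 at proestrus, 7.54, 7.93 and 7.89 at estrus, 7.53, 7.68 and 7.58 at metestrus, and 7.07, 7.82 and 7.39 at diestrus. Its stages overlapped in all comparisons (F adjusted p = 0.827). Cdk1, the kinase that drives mitosis, read 7.48, 8.04 and 7.95 at proestrus, 7.59, 8.22 and 8.17 at estrus, 7.14, 7.80 and 7.88 at metestrus, and 7.04, 7.57 and 7.81 at diestrus. Replicate 1 was its lowest array in each stage, so its stages overlapped (F adjusted p = 0.744), and within each replicate number estrus was the highest stage. It passed the F test with the replicate block (adjusted p = 0.0138), and Top2a did not (0.228).

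Among the mitotic kinases and their partners, Plk1 had a mean of 7.80 ± 0.22 (SD, n = 3) at estrus against 7.32 ± 0.09 at metestrus and 7.29 ± 0.26 at diestrus, with no overlap between estrus and either, and did not pass (F adjusted p = 0.250). Tpx2, which activates Aurora A at the spindle, was 6.31 ± 0.18 at estrus against 5.56 ± 0.12 to 5.77 ± 0.29 elsewhere, with all estrus arrays above the rest (F adjusted p = 0.112). Aurka, the Aurora A kinase itself, spread over 0.38 to 0.56 (SD) within stages and overlapped between all of them (F adjusted p = 0.837). Cdca8, the passenger protein borealin, had stage means of 5.67 to 6.08. Cdc20, which activates the anaphase-promoting complex, was 9.16 ± 0.26 at estrus and 8.52 ± 0.55 at metestrus (F adjusted p = 0.520), and its 4 kept probes differed by between -0.08 and -0.64 there and by -0.002 to 0.41 between estrus and diestrus. Under the replicate block the F test was passed by Plk1 (adjusted p = 0.0151), Tpx2 (0.0295), Aurka (0.00666) and Cdc20 (0.0171), and not by Cdca8 (0.131).

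Of the spindle and cytokinesis genes, the spindle protein Nusap1 was 8.32 ± 0.33 (SD, n = 3) at estrus against 7.69 ± 0.35 at metestrus and 7.54 ± 0.34 at diestrus (F adjusted p = 0.258). The midzone motor Kif23 was 6.42 ± 0.30 at proestrus and 6.63 ± 0.39 at estrus against 5.86 ± 0.37 at metestrus and 5.87 ± 0.20 at diestrus (F adjusted p = 0.159). With the replicate block Nusap1 passed (adjusted p = 0.000437) and so did Kif23 (adjusted p = 0.00401). The spindle motor Kif11 was the mitosis gene whose highest mean was at proestrus, 5.95 ± 0.25. Anln, a scaffold of the contractile ring, read 9.33, 9.19 and 9.25 at proestrus, 9.40, 9.42 and 9.29 at estrus, 9.68, 9.25 and 9.28 at metestrus, and 9.32, 9.42 and 9.24 at diestrus. Its highest value was metestrus 1, its stages overlapped throughout, and its fall or rise between any 2 stages was at most 0.15.

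Among the replication genes, Mcm5 was the only 1 of 18 to pass a test in the fit without a block. It encodes a subunit of the MCM2-7 helicase that unwinds origins. It read 8.81, 8.79 and 8.97 at proestrus, 8.95, 9.01 and 9.11 at estrus, 8.46, 8.46 and 8.68 at metestrus, and 8.27, 8.46 and 8.51 at diestrus. Proestrus and estrus arrays all lay above metestrus and diestrus arrays, and each of these pairs of stages overlapped within itself. Estrus exceeded diestrus 1.53-fold (0.61 ± 0.12, limma, adjusted p = 0.0222), while the fall of 0.49 ± 0.12 to metestrus and the excess of 0.44 ± 0.12 at proestrus over diestrus did not pass (adjusted p = 0.0627 and 0.0620). The F test (adjusted p = 0.0271) passed without metestrus 1, metestrus 3 or proestrus 1 and was lost without each of the other 9 arrays (adjusted p = 0.05 to 0.0971). The estrus against diestrus call was lost without any diestrus array, estrus 2 or estrus 3 (adjusted p = 0.0513 to 0.118).

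The other MCM subunits passed no test with or without the block. Mcm2 had the same order of stages as Mcm5, with means of 7.81, 7.90, 7.70 and 7.56 from proestrus to diestrus and all estrus arrays above all diestrus arrays (F adjusted p = 0.677). Mcm3 had means of 6.09, 5.94, 5.88 and 5.81 in that order of stages, with every proestrus array above every diestrus array (F adjusted p = 0.818). Mcm4, shown after its values were seen because its order was the opposite, read 10.88, 10.67 and 10.79 at proestrus, 10.95, 10.88 and 10.87 at estrus, 11.12, 10.998 and 10.83 at metestrus, and 10.99, 11.06 and 11.01 at diestrus. All its diestrus arrays lay above all its proestrus and estrus arrays, although the difference of -0.24 ± 0.12 between proestrus and diestrus did not pass (limma, adjusted p = 0.313). Mcm6 was 9.51 ± 0.04 (SD, n = 3) at estrus against 9.23 ± 0.11 at proestrus and 9.29 ± 0.08 at metestrus, with no overlap, and did not pass (F adjusted p = 0.711). The dimmer kept Mcm6 probes differed by -0.003 and -0.22 from estrus to metestrus, and by 0.21 and 0.31 between estrus and proestrus. Mcm7, detected on 5 of 12 arrays, was higher on replicate 1 arrays by 1.04 on average, more than any of its stages differed. The licensing factors Cdc6 and Cdt1, which load the helicase, had estrus means of 6.41 ± 0.01 and 8.43 ± 0.09 and diestrus means of 5.93 ± 0.22 and 8.26 ± 0.13. Cdc45, which activates it, was 6.92 ± 0.50 at estrus and 6.29 ± 0.45 at diestrus (F adjusted p = 0.873), and passed with the replicate block (adjusted p = 0.0216).

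Of the fork proteins, Fen1, the nuclease that trims Okazaki fragments, read 8.92, 8.99 and 9.06 at proestrus, 9.08, 9.27 and 9.30 at estrus, 8.73, 8.83 and 8.86 at metestrus, and 8.76, 8.76 and 8.75 at diestrus. Its estrus arrays were above all proestrus arrays, and those above all metestrus and diestrus arrays. Estrus exceeded diestrus by 0.46 ± 0.11, which did not pass (limma, adjusted p = 0.0576), and with the replicate block it did (adjusted p = 0.00957). Uhrf1, which brings the maintenance methyltransferase to new DNA, read 9.63, 9.99 and 9.99 at proestrus, 10.01, 10.24 and 10.09 at estrus, 9.60, 9.70 and 9.80 at metestrus, and 9.55, 9.67 and 9.97 at diestrus. All its estrus arrays were higher than those of the other stages (F adjusted p = 0.370). Rfc4, of the clamp loader, and Pcna, the sliding clamp, were brighter on replicate 1 arrays by 0.49 and 1.36, and no stage difference of Pcna exceeded 0.27 ± 0.60.

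Of the 4 enzymes that supply nucleotides, Tk1, Tyms and Rrm2 had their highest mean at proestrus, and none passed a test in the fit without a block. For Tk1 and Rrm2 proestrus and estrus were not told apart. Estrus minus proestrus was -0.05 ± 0.40 for Tk1 and -0.02 ± 0.26 (log2, SE) for Rrm2, which was detected on 5 of 12 arrays. In replicates 2 and 3 Tk1 was higher at estrus. Tk1, thymidine kinase, read 7.19, 7.62 and 7.32 at proestrus, 6.61, 7.83 and 7.56 at estrus, 5.75, 6.95 and 6.90 at metestrus, and 5.89, 6.29 and 7.07 at diestrus. Its proestrus arrays lay above all metestrus and diestrus arrays, and replicate 1 was its lowest array in all 4 stages. The excess of 0.96 ± 0.40 over diestrus did not pass (limma, adjusted p = 0.231), and did with the replicate block (adjusted p = 0.0158). Tyms, thymidylate synthase, read 9.25, 9.23 and 9.18 at proestrus, 8.89, 9.02 and 9.02 at estrus, 8.41, 9.04 and 9.08 at metestrus, and 8.89, 8.72 and 8.79 at diestrus. Its proestrus arrays were above all other arrays (F adjusted p = 0.451), but the other 3 kept probes of Tyms differed between proestrus and diestrus by -0.01 to 0.34. Estrus minus proestrus was 0.13, 0.24 and -0.08 on those probes, against -0.245 on the brightest. Of the ribonucleotide reductase subunits, Rrm2 was 5.70 ± 0.30 (SD, n = 3) at proestrus and 5.14 ± 0.33 at diestrus without overlap, and Rrm1 ranged from 7.72 to 7.99. Ccne1, the cyclin of S-phase entry, detected on 4 of 12 arrays, read 5.87, 4.59 and 5.497 at proestrus, 5.28, 4.94 and 4.80 at estrus, 5.63, 5.29 and 5.19 at metestrus, and 5.19, 4.47 and 4.80 at diestrus. Its stages overlapped in all comparisons.

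Set side by side, the mitosis genes had larger median differences around estrus than the replication genes. From estrus to metestrus the median log2 difference was -0.61 over the 16 mitosis genes, -0.18 over the 18 replication genes and 0.02 over all genes. Of these differences 15 of 16, 15 of 18 and 4738 of 10144 were negative. Between estrus and diestrus the medians were 0.64, 0.31 and -0.01, with 16 of 16, 16 of 18 and 4868 of 10144 positive. Estrus against proestrus gave 0.21, 0.13 and 0.01, with 15 of 16, 12 of 18 and 5186 of 10144 positive, and proestrus against diestrus gave 0.34, 0.22 and -0.02. Metestrus against proestrus gave -0.31, -0.14 and 0.02, and diestrus against metestrus -0.07, -0.10 and 0.00. These comparisons share arrays, so they are not separate observations, and no test of one group against the other was made. Among the 13 genes of each group detected on all arrays, the medians were -0.58 for mitosis and -0.25 for replication from estrus to metestrus, and 0.52 and 0.34 between estrus and diestrus.

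**Figure D4:**
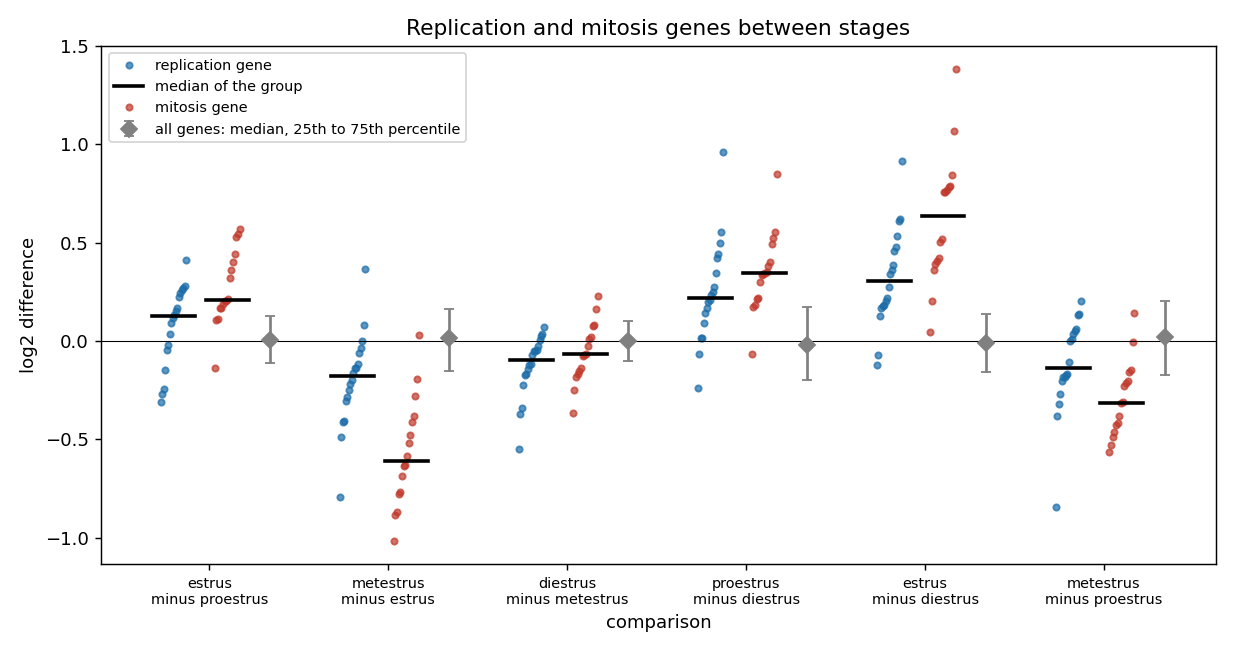
Log2 difference of each tested gene in 6 stage comparisons (points, 18 replication genes in blue and 16 mitosis genes in red, with the median as a bar), beside the median and the 25th to 75th percentile of all 10144 genes in grey. The mitosis points lie farthest from the grey medians in metestrus minus estrus and estrus minus diestrus.

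The same order was seen within each replicate number, which keeps the brighter arrays apart. The mitosis median from estrus to metestrus was -0.59, -0.51 and -0.60 in replicates 1, 2 and 3, and that of replication -0.32, -0.19 and -0.20. Between estrus and diestrus the mitosis medians were 0.63, 0.60 and 0.62 and the replication medians 0.28, 0.33 and 0.23. The highest stage was estrus for 14 of 16 mitosis genes (87.5%) and 11 of 18 replication genes (61.1%), against 20% of all genes, and proestrus for 1 and 5 (28.6% of all genes). The lowest stage was diestrus for 9 mitosis and 14 replication genes (21.1% of all genes) and metestrus for 6 and 1 (24.3%).

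Single genes passed between stages as follows. After estrus 3 of the 34 fell (Prc1, Birc5 and Bub1b), against 1.77% of all genes, and between estrus and diestrus 5 were higher at estrus, against 1.65%. Proestrus exceeded diestrus for 2 (Prc1 and Birc5), against 2.21%. No gene of either group passed estrus against proestrus (limma, 4 at an unadjusted p under 0.05, and 1.02% of all genes called), metestrus against proestrus (5 unadjusted, 5.33%) or diestrus against metestrus (0 unadjusted, 0.069%). Without overlap of arrays, 10 mitosis and 5 replication genes were lower at metestrus than at estrus, against 8.53% of all genes. Likewise 9 and 6 were higher at estrus than at diestrus (8.73%), 4 and 6 were higher at proestrus than at diestrus (11.5%), and 5 and 3 were higher at estrus than at proestrus (7.67%). For metestrus below proestrus the numbers were 2 and 4 (10.2%). From the authors' deposited values without a block, 0 of the 34 passed in any of the 6 comparisons (8 at an unadjusted p under 0.05 in each of the first 2). A fit to only the estrus and metestrus arrays called 0 (12 unadjusted), with Prc1 at adjusted p = 0.0577.

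Once the replicate number was a block, 12 mitosis genes and 3 replication genes (Fen1, Mcm5 and Uhrf1) fell after estrus, against 8.35% of all genes called in either direction. Between estrus and diestrus, 11 mitosis and 4 replication genes were higher at estrus (6.9%), and at proestrus 6 and 2 exceeded diestrus (16.3%). Cdca3 and Nusap1 were higher at estrus than at proestrus (3.06%), 7 of the 34 genes, among them Aurka, Cdc20, Cenpa and Tk1, were lower at metestrus than at proestrus, a share close to the 16.5% of all genes called, and 0 differed between diestrus and metestrus (0.296%). With replicates 2 and 3 alone, 7 mitosis genes and 1 replication gene were called between estrus and metestrus (4.68% of all genes) and 8 and 3 between estrus and diestrus (6.1%).

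The 2 groups also differed between the array sets. Mitosis genes were lower on replicate 1 arrays, with a median difference of -0.33 from the other arrays, and 14 of 16 were lower there. The replication median was -0.03, with 9 lower and 9 higher, and that of all genes was -0.07, with 5807 of 10144 lower. The mitosis gene farthest in that direction was Aurka, by -0.80, and the replication genes Cdc45 and Tk1 were lower by 0.85 and 0.83, while Pcna and Mcm7 were higher. Whether tissue, animal or processing differed between the sets was not tested, since the replicate number carries all of them.

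Further genes of the same pathways were taken from lists of general knowledge. Of 45 other replication genes, 31 were tested and 1 changed over the cycle (limma moderated F, 5.37% of all genes), the initiation factor Mcm10, with an estrus mean of 6.84 against 6.52 at proestrus, 6.03 at metestrus and 5.66 at diestrus (adjusted p = 0.000383). The median of these 31 was -0.11 from estrus to metestrus and 0.07 between estrus and diestrus. Of 60 other mitosis genes, 32 were tested and 5 changed: the kinesins Kif15 (adjusted p = 0.00419) and Kif4 (0.0212), the mitotic kinase Pbk (0.00784), the checkpoint gene Mad2l1 (0.0349) and separase, Espl1 (0.0354). Kif15 had means of 7.37, 7.52, 6.69 and 6.57 from proestrus to diestrus, and Kif4 of 5.79, 6.43, 5.77 and 5.75. Mad2l1 was highest at proestrus, with 9.11 against 8.91 at estrus and 8.07 at diestrus. Their list's median was -0.32 from estrus to metestrus, where 3 fell and 0 rose, and 0.35 between estrus and diestrus, where 4 were higher at estrus. With the replicate block 3 of the other replication genes and 9 of the other mitosis genes changed over the cycle, against 16.4% of all genes.

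Of 45 cell cycle regulators, 31 were tested and 1 changed, against 5.37% of all genes: the inhibitor of cyclin-dependent kinases Cdkn1c. Its metestrus mean was 11.85, against 11.12 at proestrus, 11.19 at estrus and 11.32 at diestrus (F adjusted p = 0.0208). Any link between Cdkn1c and the replication or mitosis genes was not tested. The activators E2f1 and Foxm1 had their highest means at estrus, 8.07 and 6.28, and did not pass (F adjusted p = 0.118 and 0.186). With the replicate block 6 of the 31 regulators changed, a share close to the 16.4% of all genes. They were Ccng2, Cdkn1a, Cdkn1c, E2f1, Foxm1 and Rbl1. From estrus to metestrus 5 regulators passed with the block, against 8.35% of all genes. Of these, 4 fell (Cdkn1a, E2f1, Foxm1 and Rbl1) and 1 rose (Cdkn1c). The regulators' median was 0.01 from estrus to metestrus and 0.01 between estrus and diestrus.

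Summed markers of the ovary, which lies beside the oviduct and releases eggs into it, were also highest at estrus. The summed linear intensity of 12 tested oocyte markers (of 23 listed) was 1900 to 2350 at estrus, against 448 to 600 at proestrus, 526 to 704 at metestrus and 871 to 1240 at diestrus. Over the cycle 7 of 12 changed, against 5.37% of all genes. Between estrus and diestrus 5 passed, all higher at estrus, while Oog1 read 7.83, 7.31 and 7.65 at estrus and 8.17, 7.95 and 8.29 at diestrus. Defining oocyte genes Mos, Npm2, Zp1, Zp2 and H1f8 were not detected on any array, while Gdf9, Nlrp14 and Ooep were detected on all 12. The 11 tested markers of ovarian somatic cells (of 19), such as the granulosa genes Inha and Hsd17b1, summed to 3370 to 3770 at estrus, 1900 to 2060 at proestrus, 831 to 882 at metestrus and 908 to 973 at diestrus. Of these, 9 of 11 changed (5.37% of all genes). The tested probes of Fshr and Hsd3b1 were detected on the 3 estrus arrays alone, so these genes entered the test only through estrus. Amh and Nr5a1 were not detected on any array. For estrus against proestrus 5 passed, all higher at estrus (1.02% of all genes called). Inhba, Inhbb and Cyp17a1 had higher means at proestrus, with Inhba at 7.87, 8.04 and 8.17 there and 7.70, 7.91 and 7.93 at estrus. Prc1 and Birc5 were higher at proestrus than at diestrus, as were 5 ovarian somatic markers, while 1 ovarian somatic marker and 5 oocyte markers were lower there. The part of these cells in the differences of the cell cycle genes was not tested.

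Multiciliogenesis genes, which build ciliated cells and use parts of the cell cycle machinery, had a different order. The 10 tested genes of that list (of 14, with Plk4 also in the mitosis list and Foxj1 in the epithelial list) summed to 3010 to 3390 at estrus and 4140 to 4360 at diestrus. Mcidas and Ccno, regulators of centriole amplification, were lower at estrus than at diestrus (limma, adjusted p = 0.0436 for each). The F test was passed by 0 of 10 (5.37% of all genes), and by 3 with the replicate block (16.4% of all genes). Epithelial markers summed to 51600 to 70700 at proestrus, 56300 to 68900 at estrus, 53100 to 85300 at metestrus and 57300 to 72400 at diestrus, all overlapping, with Cldn4 passing alone among the 10. Of the markers of blood and stroma, 0 of 4 lymphocyte, 1 of 6 macrophage (Cd14), 0 of 3 erythroid, 0 of 9 endothelial and 0 of 9 smooth muscle genes changed, against 5.37% of all genes. With the replicate block Cd14, the erythroid gene Alas2, the endothelial gene Esam and the smooth muscle gene Myh11 did, against 16.4% of all genes. The 3 erythroid genes summed to 7250 to 11000 at proestrus and 4300 to 5130 at diestrus without overlap, with 6140 to 9080 at estrus and 3690 to 10300 at metestrus. Nearly all of each sum came from Hba-a1. Their median difference between proestrus and diestrus was 0.96, in the direction of Prc1 and Birc5, and with the block Alas2 and Hba-a1 passed there. What blood contributed to the cell cycle genes was not tested.

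**Figure D5:**
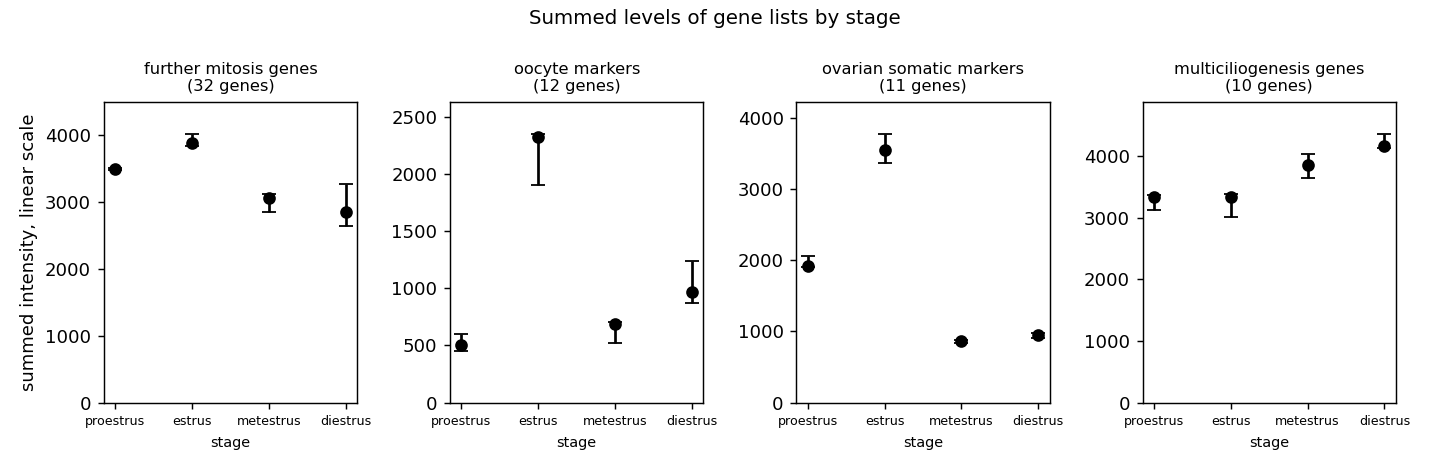
Summed linear intensity of 32 further mitosis genes, 12 oocyte markers, 11 ovarian somatic markers and 10 multiciliogenesis genes by stage (point, median of 3 arrays; bar, lowest to highest). The first 3 lists are highest at estrus and the multiciliogenesis genes are highest at diestrus.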

How the data were processed

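Oviduct RNA was column-purified with DNase treatment and labelled with biotin for a 1-colour Illumina array, per the labels' protocols. For each of 25697 probes and each array, the deposited table gives the raw intensity with its detection p-value, per the file headers. The authors also deposited normalized intensity values, about which the sources used here give no software. In them the median differs between replicate 1 (46.7 to 46.8) and replicates 2 and 3 (23.4).

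Raw intensities went through neqc of limma 3.58.1 (R 4.3.3), which corrects background by normexp with the help of the detection p-values, adds 16, quantile normalizes and takes log2. Probes with a detection p under 0.01 on at least 3 arrays were kept (14778), named by the platform's symbols, and the brightest stood for its gene, which left 10144 genes. A model with 1 mean per stage was fitted to the 12 arrays with lmFit and eBayes (8 residual degrees of freedom), with a moderated F over the stages and 6 contrasts. P-values were adjusted over all 10144 genes by the Benjamini-Hochberg method, with a threshold of 0.05. SE is that of the fit. The script was tested on simulated data.

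After removing stage means, arrays of different stages correlated at 0.62 to 0.81 if both were replicate 1, at 0.26 to 0.51 for replicate 2 and at 0.36 to 0.55 for replicate 3. By the rule used (all above 0.1) the numbers pair the arrays, although replicates 2 and 3 of different stages also correlated at 0.22 to 0.54, so counts with the number as a block stand beside the others. The pairing comes from the data and not from the labels.

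The genes, their division into groups, the pathway and marker lists and the tests were chosen with earlier results of these data known. Named in full were genes that passed a test and, for each role in which none passed, up to 2 with the lowest F p-value. From the other lists, genes past the F test were named, up to 8 a list, and Mcm4, E2f1, Foxm1, the genes of the block fit and the erythroid genes were added after their values were seen. Alternatives were another offset, no background correction, the deposited values, other filters and probe rules, blocks, subsets of arrays and leaving out each array. The fit without estrus and that of the deposited values with a block were chosen after seeing the data. The number of arrays limits the precision.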

Additional observations from a re-analysis of the deposited data

How the results depend on the processing

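Changes in the count of genes called follow, by setting. Over the cycle 4 genes changed, and the count was 16 with the replicate block, 17 with the array set as a block, 10 in replicates 2 and 3 alone, 0 from the deposited values and 15 from those with the replicate block. The shares of all genes rose and fell too, from 5.37% to 16.4%, 18.6%, 10.7%, 0.651% and 14.2%. In the same order of settings, the 3 calls of metestrus against estrus became 15, 16, 8, 0 and 14 (all genes 2.46%, then 8.35%, 9.52%, 4.68%, 0.522% and 7.53%), and the 5 of estrus against diestrus became 15, 17, 11, 0 and 14 (2.22%, then 6.9%, 8.01%, 6.1%, 0.365% and 5.86%). For proestrus against diestrus, 2 (4.86% of all genes) became 8 with the replicate block (16.3%), 9 with the array set block (17.7%), 0 from the deposited values (0.197%), 9 from those with the block (14.1%), 1 with no detection filter, 1 with only the arrays of the 2 stages and 0 without the estrus stage (9 at an unadjusted p under 0.05). For metestrus against proestrus, 0 (5.33% of all genes) became 7 under each of the 3 block settings (16.5%, 18% and 14.4%), and 1 with an offset of 50, with probes detected on all arrays, with the mean of probes, with no filter and with no background correction. For estrus against proestrus, 0 (1.02%) became 2 with the replicate block (3.06%) and 1 under the other 2 block settings (3.4% and 2.6%). Metestrus against estrus gave 5 with an offset of 50 and 0 with only its own arrays. Leaving out each array gave 2 to 6 genes over the cycle, 1 to 4 for metestrus against estrus, 2 to 8 for estrus against diestrus and 0 to 4 for proestrus against diestrus, with 0 throughout for the other 3 comparisons. Of these, metestrus 1 gave the 8 and the 4, and removing any proestrus or diestrus array, or estrus 2 or 3, gave 0 for proestrus against diestrus (5 to 10 unadjusted).

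The mitosis median between estrus and diestrus was 0.41 with no filter and 0.38 without background correction, with 0.48 to 0.75 over the arrays left out. From estrus to metestrus it was -0.41, -0.39 and -0.71 to -0.41 (nearest 0 without metestrus 1), and for estrus against proestrus 0.13 to 0.40 (highest without estrus 1). The replication median between estrus and diestrus was 0.23 with an offset of 50, 0.21 without background correction and 0.23 to 0.37 over the arrays left out. It was -0.25 from estrus to metestrus over genes detected on all arrays, and 0.13 for proestrus against diestrus without background correction (0.22 to 0.29 over the arrays left out). For metestrus against proestrus it was -0.20 from the deposited values, with and without the block, -0.049 with the mean of probes and -0.14 to -0.076 over the arrays left out. No called gene changed direction under any setting. The low signal of Bub1b, Ccne1, Mcm7, Rrm2 and Tpx2, detected on 4 to 8 of 12 arrays, limits what can be seen of them, and the cause of the other changes was not tested.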
